A study of Mus musculus with 2 samples.

Results

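The genes described here are 49 genes whose products act in G2 phase and mitosis, taken by symbol from a fixed list, out of 22620 genes counted in both libraries. All 49 had at least 1 UMI (unique molecular identifier, 1 counted RNA molecule) in each library. Single-cell RNA sequencing had been run on 2 libraries made with the 10x Genomics Chromium 3′ chemistry from C57BL/6J mice bearing EO771-HEVM3 tumours, 1 library of primary tumours and 1 of the paired lymph nodes, with material from 6 mice pooled in each. EO771 is a mouse breast cancer line. HEVM3 is a derivative of it that carries the photoconvertible protein Dendra2H2B and was selected in the animal over successive generations for cells that had reached the lungs through the blood vessels of lymph nodes, so all cancer cells described here share that selection. The tumours were digested with collagenase I, collagenase III and hyaluronidase, whereas the lymph nodes were digested for a shorter time with collagenase P, dispase and DNase, so that site and digestion cannot be told apart. The study methods also mention blood endothelial cells sorted from metastatic lymph nodes and run in parallel, and whether any of those cells entered the lymph node library is not given in the sources used here. The mice were a few weeks old when they were obtained, and their age at collection is not given in the sources used here. With 1 library a site there were no replicates, so no test was run, and the intervals below are exact 95% intervals that cover counting error only.

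Mitosis is driven by the kinase CDK1 bound to a B-type cyclin. Aurora and checkpoint kinases then guard the attachment of chromosomes to the spindle, and the anaphase-promoting complex (APC/C), a ubiquitin ligase, ends the phase by marking cyclin and securin for degradation. Many of the genes involved are silent in resting cells and are switched on together late in the cycle, partly through the transcription factors FOXM1 and B-MYB and a promoter element called the cell cycle genes homology region. In a lymph node, dividing cells are typically found in germinal centres and, during an immune response, among activated T cells and the endothelium, whereas a tumour holds dividing cancer cells alongside largely resting myeloid cells. The 49 genes were grouped by role into the cyclin-CDK engine, mitotic kinases and checkpoint, APC/C and ubiquitin, centromere and kinetochore, spindle and microtubules, cytokinesis, and chromatin and nuclear envelope.

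The primary tumour library held 12427 barcodes with 173317475 UMIs, and the lymph node library 11617 barcodes with 122207852 UMIs. After limits on detected genes and mitochondrial UMIs and removal of doublets, 8756 and 9689 cells were kept, with a median of 9383 and 2324 UMIs per cell, and 47 barcodes occurred in both libraries. No deposited file named cell types, so classes were rebuilt by clustering and named from lists of marker genes, and differences from the study's own classes may come from that. The 49 genes were left out of the clustered genes, but a score made from them was regressed out, so they still entered the classes in that way. All 3 genes of high endothelial cells (Glycam1, Chst4 and Fut7) were at 0 in primary tumour endothelial cells, and a subcluster of 35 lymph node endothelial cells in which all 3 were raised is called HEC-like. Of these genes only Chst4 was among its 10 leading genes, which began with the chemokines Ccl4 and Ccl2 and held the stress response genes Gadd45b and Jun. Another 23 lymph node endothelial cells formed a subcluster with Glycam1 at 4042 CPM (counts-per-million, from UMIs summed over the cells) against 3312 CPM in the HEC-like one, Chst4 at 475 against 1373 CPM and Fut7 at 881 against 1267 CPM, and they are counted among the other endothelial cells. Lymph node cancer cells came mainly from 1 cluster (513 of 612 cells) and lymph node endothelial cells formed a cluster with 0 primary tumour cells, so that a cluster of this kind may be the library and not a separate type.

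To compare cells of different depth, every cell was thinned at random to 1000 UMIs, cells with fewer were left out, and a cell was called past the limit when it held a UMI of at least 4 of the 49 genes. Endothelial cells of the lymph node had the highest share of such cells, followed by germinal centre B cell-like cells and by cancer cells. In lymph node endothelial cells 91 of 174 cells were past the limit, which is 52.3% (44.6 to 59.9), and HEC-like cells (54.3%, 36.7 to 71.2, 19 of 35) and the other lymph node endothelial cells (51.8%, 72 of 139) had overlapping intervals. Germinal centre B cell-like cells reached 45.3% (33.8 to 57.3, 34 of 75). Lymph node cancer cells stood at 37.3% (33.4 to 41.3, 227 of 609) and primary tumour cancer cells at 25.2% (24.2 to 26.4, 1525 of 6042), so the intervals of the sites did not overlap. These cancer cells had at most 6000 detected genes, and with no upper limit the shares were 30.4% of 6664 and 57.1% of 1351 cells. Primary tumour T cells (22.1%, 18.4 to 26.2), regulatory T cell-like cells of the lymph node (23.2%, 81 of 349) and lymph node plasma cells (24.8%, 25 of 101) were close to each other. Primary tumour endothelial cells stood at 10.4% (3.47 to 22.7), from only 5 of 48 cells.

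Classes of mostly non-dividing cells gave the background of the measure. Neutrophils, which leave the cycle as they mature, stood at 3.23% in the primary tumour (2 of 62) and 3.03% in the lymph node (1 of 33), and 247 primary tumour neutrophils with fewer than 1000 UMIs were left out. Primary tumour macrophages were at 4.30% and monocytes at 2.38%. B cells outside the germinal centre class were at 8.61% (7.81 to 9.47, 385 of 4471) and the other lymph node T cells at 9.03% (299 of 3310), and these lymphocytes were past the limit mainly through a few genes. Of the B cells past the limit 76.1% had a UMI of Hmgb2, a DNA-bending chromatin protein, 47.3% of Cenpa, the histone variant that marks centromeres, and 43.4% of Ctcf, the insulator protein. When the 12 genes that cells also use outside mitosis (Hmgb2, Tubb4b, Cbx5, Ctcf, Ckap5, Lbr, Anp32e, Tmpo, Rangap1, Smc4, Cks1b and G2e3) were left out, the share among these B cells was 0.246% and among these T cells 0.393%. Cancer cells of the primary tumour kept 14.95% and those of the lymph node 23.0% with the 37 remaining genes, lymph node endothelial cells 24.7%, germinal centre B cell-like cells 18.7% and primary tumour endothelial cells 8.33%. Without thinning, 90.3% and 99.0% of the cancer cells at the 2 sites held at least 4 of the genes, with median depths of 14060 and 35030 UMIs, and so did 36.4% of the B cells outside the germinal centre, so the unthinned shares were higher in the deeper classes.

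**Figure D1:**
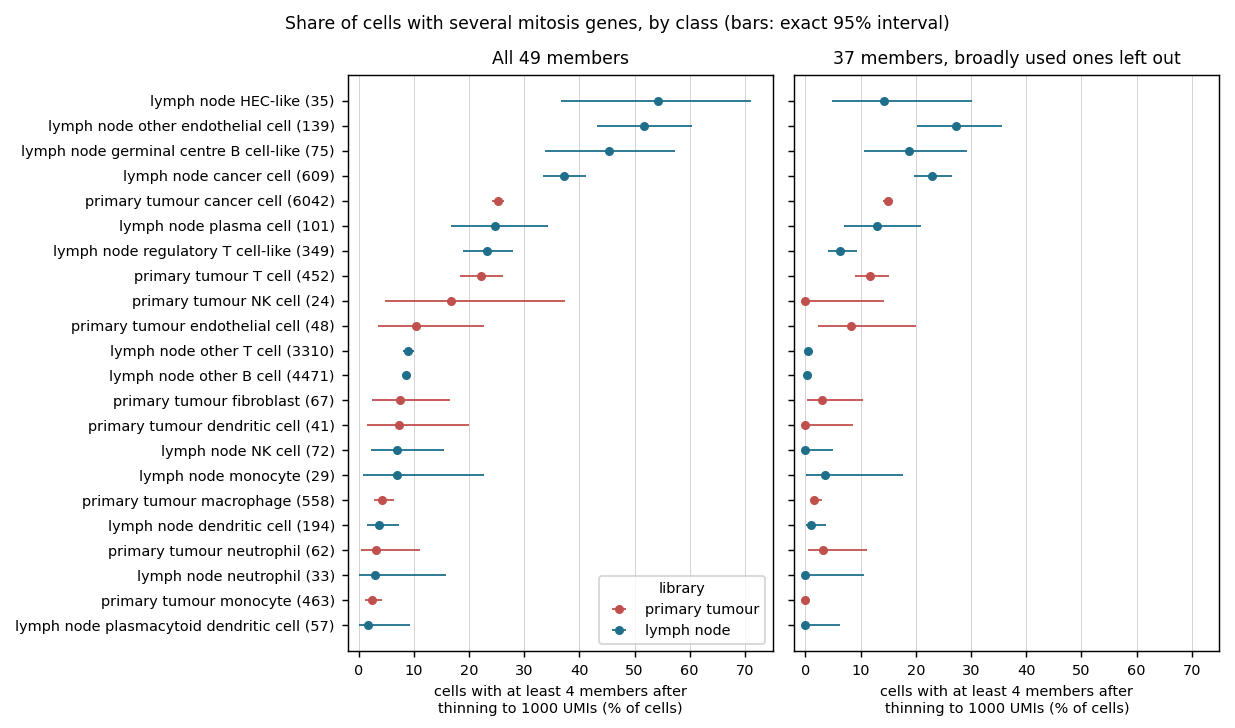
Share of cells with a UMI of at least 4 genes after thinning to 1000 UMIs (x axis, % of cells) in each class and library (y axis, number of thinned cells in brackets), with all 49 genes on the left and with the 37 left after removing 12 broadly used genes on the right. Points are shares and bars exact 95% intervals. Lymph node endothelial, germinal centre B cell-like and cancer cells lie on the right of both panels, while the B and T cells outside the germinal centre and regulatory classes fall from 8.61% and 9.03% to below 1% when 12 genes are left out.

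The number of genes found per thinned cell had no gap at the limit. In primary tumour cancer cells 23.0% of the cells had 0 of the 49 genes, 489 cells had 3 and 332 had 4, and the highest cell had 20. In lymph node cancer cells 20.2% had 0, with 57 cells at 3 and 54 at 4, and past the limit the numbers went up and down, with 34 cells at 5, 45 at 6, 18 at 8 and 26 at 9. Lymph node endothelial cells were shifted as a whole: 7.47% had 0, the median was 4 genes, and 27 cells had 3 and 26 had 4. In primary tumour endothelial cells 33.3% had 0 and the median was 1. The limit therefore divides a continuous range of counts. A thinned cell keeps few UMIs of these genes, so the lack of a gap cannot show whether dividing cells form a separate group. That question was not tested.

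**Figure D2:**
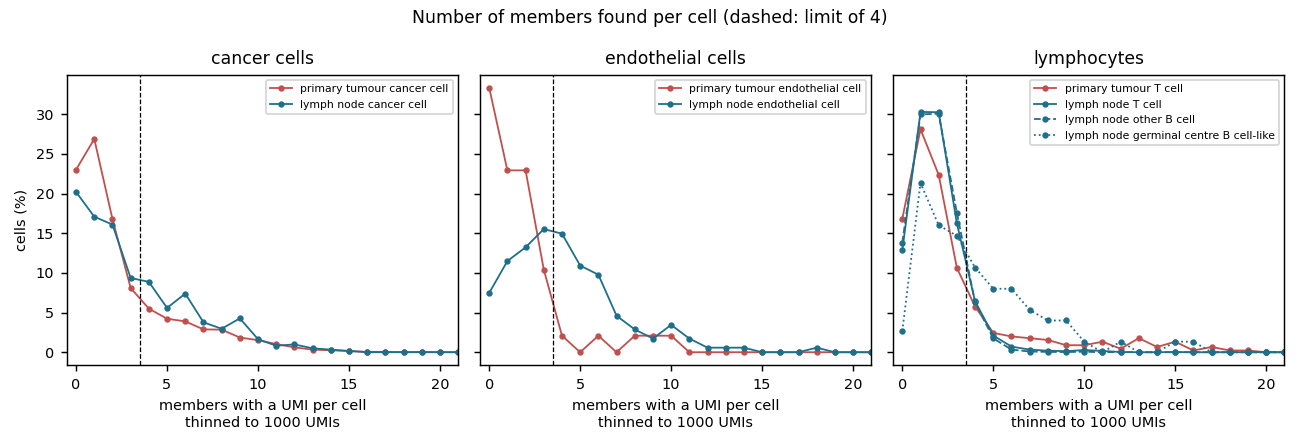
Share of cells (y axis, %) by the number of the 49 genes with a UMI after thinning to 1000 UMIs (x axis), for cancer cells, endothelial cells and lymphocytes of both libraries. The dashed line is the limit of 4 genes. Lymph node endothelial cells peak at 3 and 4 genes, whereas cancer cells peak at 1 gene in the primary tumour and at 0 in the lymph node, where the line goes up and down between 5 and 9 genes.

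In cancer cells the genes were found in the same cells. For each gene the limit was set with the other 48, so that a gene did not choose its own cells, and its level in CPM was compared between cells past the limit and the other cancer cells. In the primary tumour 46 of the 49 genes were over 2-fold higher in the cells past the limit, where 6.19% of the 10701 genes with at least 100 UMIs were that much higher, and the median fold over the 49 genes was 7.28. In the lymph node 45 of 49 were over 2-fold higher against 3.8% of 8838 genes, with a median fold of 5.32. The 12 genes with uses outside mitosis had median folds of 2.43 and 2.09, and the other 37 had 8.61 and 6.03. Cells past the limit were deeper in the primary tumour (median 21982 UMIs against 12088) and close in the lymph node (36643 against 33442.5), and the part of depth in the folds was not tested.

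The centromere and kinetochore genes had some of the steepest differences. Cenpf, which encodes a large protein of the outer kinetochore, was at 419 CPM in primary tumour cells past the limit and 23.4 CPM in the others, a 17.9-fold difference (17.0 to 18.9), and at 317 and 46.8 CPM in the lymph node. Cenpe, a kinesin that carries chromosomes to the spindle equator, was 13.1-fold higher in the primary tumour and 7.01-fold higher in the lymph node. Birc5, the passenger protein survivin, was at 408 and 55.4 CPM in the primary tumour. Ndc80 and Nuf2, subunits of the complex that holds microtubules at the kinetochore, were 8.83-fold and 10.6-fold higher there, and Cdca8 (borealin) 7.11-fold. Hjurp, the chaperone that deposits Cenpa, was the exception at 2.32-fold and 2.22-fold, with UMIs in 49.8% of primary tumour cancer cells below the limit.

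Spindle genes spanned the whole range. Nusap1, which bundles spindle microtubules, was 15.2-fold higher (108 against 7.13 CPM) in primary tumour cells past the limit, Hmmr, a hyaluronan receptor that also sits on the spindle, 14.9-fold (67.3 against 4.50 CPM), and Kif11, the kinesin that pushes spindle poles apart, 12.2-fold. In the lymph node Ckap2l was 9.82-fold and Hmmr 8.68-fold higher. At the other end stood Tubb4b, a beta-tubulin of every cell's cytoskeleton, at 1.80-fold, and Rangap1, the activator of the Ran GTPase that works in nuclear transport all through the cycle, at 2.18-fold. Kif2c, which takes microtubules apart, lay between at 7.81-fold. Ckap5, a microtubule polymerase, was 2.43-fold higher in the primary tumour and 1.88-fold in the lymph node.

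Mitotic kinases had the highest median fold of all roles at both sites (primary tumour 10.4, lymph node 8.89). Aurka, the kinase of spindle poles, was 11.2-fold and 10.4-fold higher at the 2 sites, Aurkb, the passenger kinase, 10.4-fold and 9.38-fold, and Nek2, a centrosome kinase, 10.9-fold and 8.89-fold. The checkpoint kinases Bub1 and Ttk were 7.21-fold and 8.50-fold higher in the primary tumour. Genes of the APC/C group had a median of 8.69 and 4.32, with Ube2c, its ubiquitin-conjugating enzyme, at 749 against 72.4 CPM in the primary tumour and 584 against 103 CPM in the lymph node. Cdc20, the activator of the complex, was 10.3-fold and 5.32-fold higher, while G2e3, a ubiquitin ligase named for G2 expression, was only 2.54-fold and 2.90-fold higher. Cytokinesis genes had medians of 7.71 and 5.97, from Anln (anillin, 6.54-fold in the primary tumour) to Kif23, a centralspindlin kinesin (9.07-fold).

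The cyclin-CDK engine and the chromatin genes were less steep. Cdk1 itself was 6.89-fold higher in primary tumour cells past the limit (184 against 26.6 CPM) and 3.86-fold in the lymph node (261 against 67.7 CPM), and 60.9% of lymph node cancer cells below the limit had a UMI of it. Cks1b and Cks2, small proteins that bind CDKs, were 3.66-fold and 2.83-fold higher in the primary tumour. Among chromatin genes Top2a, the topoisomerase that untangles sister chromatids, was 8.45-fold and Mki67, the antigen used to score proliferation, 9.17-fold higher in the primary tumour, against 1.90-fold for Cbx5, a heterochromatin protein, and 1.91-fold for Ctcf. In the lymph node Ctcf (1.41-fold), Cbx5 (1.59-fold) and Tmpo, a nuclear lamina protein (1.83-fold), were lowest. The fold was smaller in the lymph node for 46 of the 49 genes and larger for 3 (Cks2, G2e3 and Tubb4b, named after their values were seen). The intervals of the 2 sites lay apart for 26 of the 46 and 1 of the 3. Over all genes the median log2 fold was also smaller in the lymph node (0.08) than in the primary tumour (0.21). In lymph node cells past the limit 34 genes were lower than in those of the primary tumour, and in cells below the limit 30 genes were higher.

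**Figure D3:**
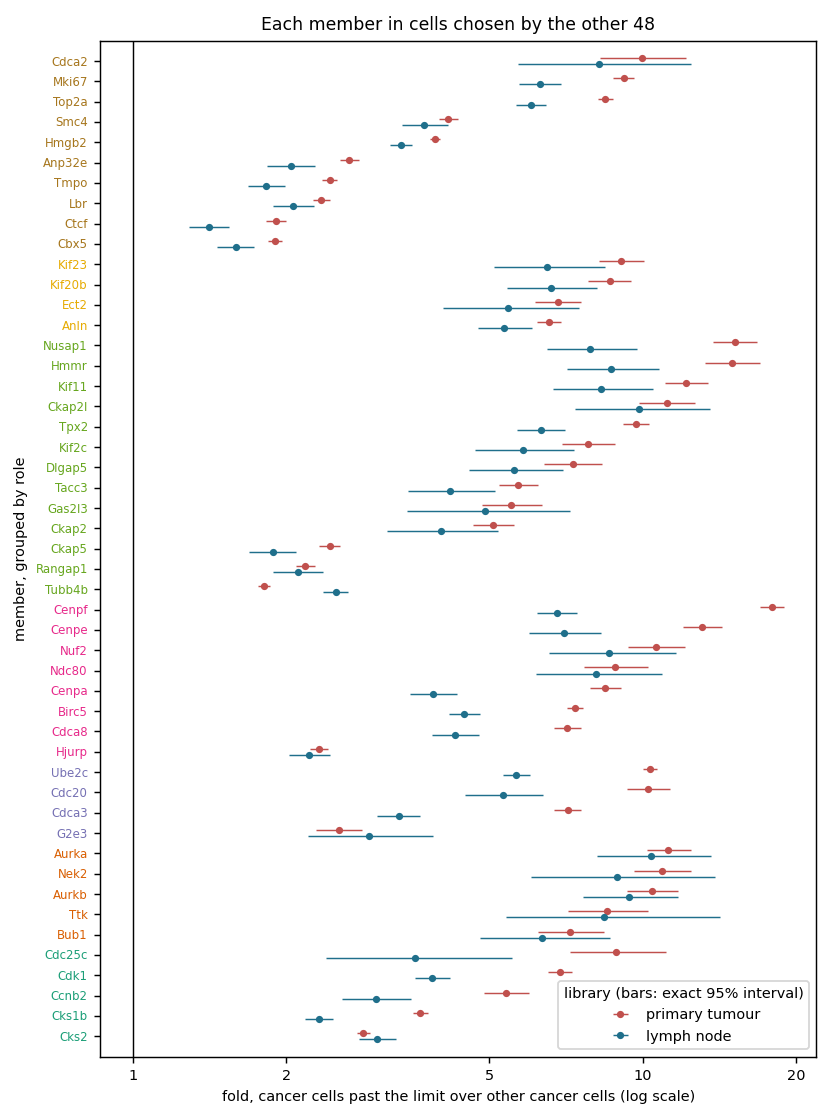
Fold of each gene in cancer cells past the limit over the other cancer cells (x axis, log scale), with the cells chosen by the other 48 genes, in the primary tumour (red) and the lymph node (blue). Names on the y axis are grouped by role, each role with its own colour, from the cyclin-CDK engine at the bottom to chromatin genes at the top. Bars are exact 95% intervals. Cenpf, Nusap1 and Hmmr reach furthest right in the primary tumour, Ctcf, Cbx5 and Tubb4b lie near 2, and most blue points lie left of the red ones.

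Promoter sequence was available for 43 of the 49 genes from RefSeq (GRCm38.p6), as windows from 250 bases before to 50 after the start, and Ect2, Cbx5 and Tmpo had 2 windows each. Cdc25c, Aurkb, Tpx2, Dlgap5, Smc4 and Cdca2 had no window. A search of both strands for TTTGAA, the core of the cell cycle genes homology region (CHR), found it in 33 of 46 windows (71.7%) against 17.9% of all 32851 windows of the same length. CCAAT, the box bound by NF-Y, was in 33 windows (71.7%) against 37.4%, and both motifs were in 26 windows (56.5%) against 6.95%. The motifs can share at most 1 base. The windows of the 3 genes with the highest and the 2 with the lowest fold among primary tumour cancer cells, of the genes with exactly 1 window, are shown because they let the steepest and the flattest genes be compared. Capitals mark TTTGAA and CCAAT on either strand, and CCAAT on the opposite strand reads ATTGG.
Cenpf: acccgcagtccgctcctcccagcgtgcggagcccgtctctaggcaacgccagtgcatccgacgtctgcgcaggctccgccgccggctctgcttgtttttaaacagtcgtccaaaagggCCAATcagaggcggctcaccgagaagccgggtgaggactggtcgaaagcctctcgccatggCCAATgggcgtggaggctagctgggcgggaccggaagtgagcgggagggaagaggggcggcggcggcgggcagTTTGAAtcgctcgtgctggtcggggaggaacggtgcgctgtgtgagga
Nusap1: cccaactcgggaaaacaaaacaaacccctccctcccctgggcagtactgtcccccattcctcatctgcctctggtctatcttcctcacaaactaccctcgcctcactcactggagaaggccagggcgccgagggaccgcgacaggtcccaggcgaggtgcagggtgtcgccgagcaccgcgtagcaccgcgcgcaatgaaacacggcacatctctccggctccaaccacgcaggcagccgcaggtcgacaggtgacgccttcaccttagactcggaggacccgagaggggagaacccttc
Hmmr: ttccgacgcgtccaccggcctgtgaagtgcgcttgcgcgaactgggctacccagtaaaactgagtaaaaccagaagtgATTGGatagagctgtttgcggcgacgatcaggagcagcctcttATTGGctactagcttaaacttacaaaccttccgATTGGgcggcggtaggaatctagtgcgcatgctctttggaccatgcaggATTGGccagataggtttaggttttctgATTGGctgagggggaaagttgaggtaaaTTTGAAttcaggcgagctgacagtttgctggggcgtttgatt
Ctcf: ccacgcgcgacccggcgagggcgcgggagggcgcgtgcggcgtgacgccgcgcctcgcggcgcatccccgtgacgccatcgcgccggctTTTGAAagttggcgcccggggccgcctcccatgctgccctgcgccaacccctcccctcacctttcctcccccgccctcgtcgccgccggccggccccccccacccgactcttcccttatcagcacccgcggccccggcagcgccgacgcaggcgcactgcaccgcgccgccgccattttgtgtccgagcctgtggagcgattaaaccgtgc
Tubb4b: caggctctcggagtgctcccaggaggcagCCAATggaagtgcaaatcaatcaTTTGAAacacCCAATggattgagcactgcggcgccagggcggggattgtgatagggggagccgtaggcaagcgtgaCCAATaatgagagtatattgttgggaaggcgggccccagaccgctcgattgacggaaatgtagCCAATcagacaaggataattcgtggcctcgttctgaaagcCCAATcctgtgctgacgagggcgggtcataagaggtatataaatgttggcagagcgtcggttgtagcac
Cenpf (chr1:189688037-189688336, minus strand) had TTTGAA with its first base at position 3 after the start and 2 CCAAT boxes upstream, and Hmmr (chr11:40733388-40733687, minus strand) had TTTGAA at position 9 and 5 CCAAT boxes, all on the opposite strand. Nusap1 (chr2:119618048-119618347, plus strand) held neither motif in this window although its fold was the second highest. Of the flat genes, Ctcf (chr8:105636288-105636587, plus strand) had TTTGAA at -161 and no CCAAT, and Tubb4b (chr2:25224653-25224952, minus strand) had TTTGAA at -198 and 5 CCAAT boxes. Across all genes with a window, the 32 with TTTGAA had a median primary tumour fold of 7.11 (1.80 to 17.9) and the 11 without it 7.21 (1.90 to 15.2), so the presence of these letters did not separate steep from flat genes. A match is a description of the sequence and not a binding site.

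Between the sites, the summed level of the 49 genes in cancer cells was close, at 3727 CPM (3715 to 3739) in the primary tumour and 3802 CPM (3775 to 3829) in the lymph node, although the share of cells past the limit was higher in the lymph node. None of the 49 genes was over 2-fold lower or higher in the lymph node, where 9.36% and 4.62% of the 10743 genes with at least 100 UMIs at either site were. The interval of the ratio left out an equal level on the lower side for 19 genes and on the higher side for 20, against 51.4% and 27.5% of all genes. With a limit chosen after seeing the data that weighs the sites equally, a mean of the sites of at least 20 CPM, 36 of the genes were kept, of which 0 were over 2-fold lower or higher (5.88% and 2.97% of 5560 genes) and 13 and 16 had intervals on the lower and the higher side (54.9% and 32.7%). The median log2 ratio (lymph node over primary tumour) was -0.02 with 25 genes lower and 24 higher, the median over all genes was -0.18, and 32 of the 49 lay above it. With no upper limit on detected genes the median was 0.29, and as a mean over single cells, in which each cell weighs the same, it was 0.32, so its sign depends on how cells are kept and weighed.

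Among cyclin and kinase genes the order of the sites differed from gene to gene. Cdk1 (ENSMUSG00000019942, chr10:69335146-69352938, GRCm38) was at 78.6 CPM (76.8 to 80.4) in the primary tumour and 138 CPM (133 to 144) in the lymph node, a log2 ratio of 0.82. Ccnb2, a B-type cyclin, was at 19.4 and 35.4 CPM (log2 ratio 0.86) and Aurkb at 22.8 and 35.2 CPM (0.63). In contrast Nek2 was at 18.7 CPM in the primary tumour and 9.42 CPM in the lymph node (-0.98, the lowest of the 49), Aurka at 31.6 and 26.2 CPM (-0.27), and Cks2 at 172 and 126 CPM (-0.45) where Cks1b was at 156 and 201 CPM (0.37). The role medians were 0.37 for the cyclin-CDK engine and -0.27 for the kinases, so genes that act at the start of mitosis differed in direction.

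The centromere histone Cenpa (49.96 and 81.7 CPM, log2 ratio 0.71) and the spindle gene Dlgap5 (14.1 and 25.4 CPM, 0.85), whose product stabilises kinetochore fibres, were among the 5 genes with the highest ratios in the lymph node. Cdca3, a substrate-recognition protein of mitotic entry, was at 61.8 and 93.3 CPM (0.59). Ube2c (292 and 277 CPM), Cenpf (154 and 148 CPM), Hmgb2 (332.5 and 333.7 CPM) and Top2a (242 and 249 CPM) were close at both sites, with log2 ratios between -0.08 and 0.04. Lower in the lymph node were Ect2, the exchange factor that starts the cleavage furrow (21.4 and 12.4 CPM, -0.79), Ckap2, a spindle protein (23.2 and 15.6 CPM, -0.57), Rangap1 (87.7 and 59.99 CPM, -0.55) and Cbx5 (162 and 112 CPM, -0.53). The role medians were 0.16 for centromere genes, 0.05 for the APC/C group, -0.08 for the spindle, -0.10 for chromatin and -0.23 for cytokinesis. Within cells past the limit the median log2 ratio of the 49 genes was -0.23 with 34 lower, and among the other cells 0.23 with 30 higher. Summed markers of cancer cells (10 of 10 detected at both sites) were at 4814 CPM in the primary tumour and 5469 CPM in the lymph node, and within the primary tumour at 3551 CPM past the limit and 5457 CPM below it.

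Cancer cells past the limit were not spread evenly. In the primary tumour, 1 cluster of 1544 cells held 1054 cells past the limit (68.3%), another had 28.8%, and the other 3 had 5.80%, 3.43% and 1.49%. The cluster of 1544 cells was led by genes that included Cenpf and Ube2c, although the 49 genes were left out of the clustered genes and their score was regressed out. In the lymph node the main cluster had 40.6% (208 of 513) and 2 smaller ones 20.3% and 26.3%. These shares describe the clusters and are no test of them.

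**Figure D4:**
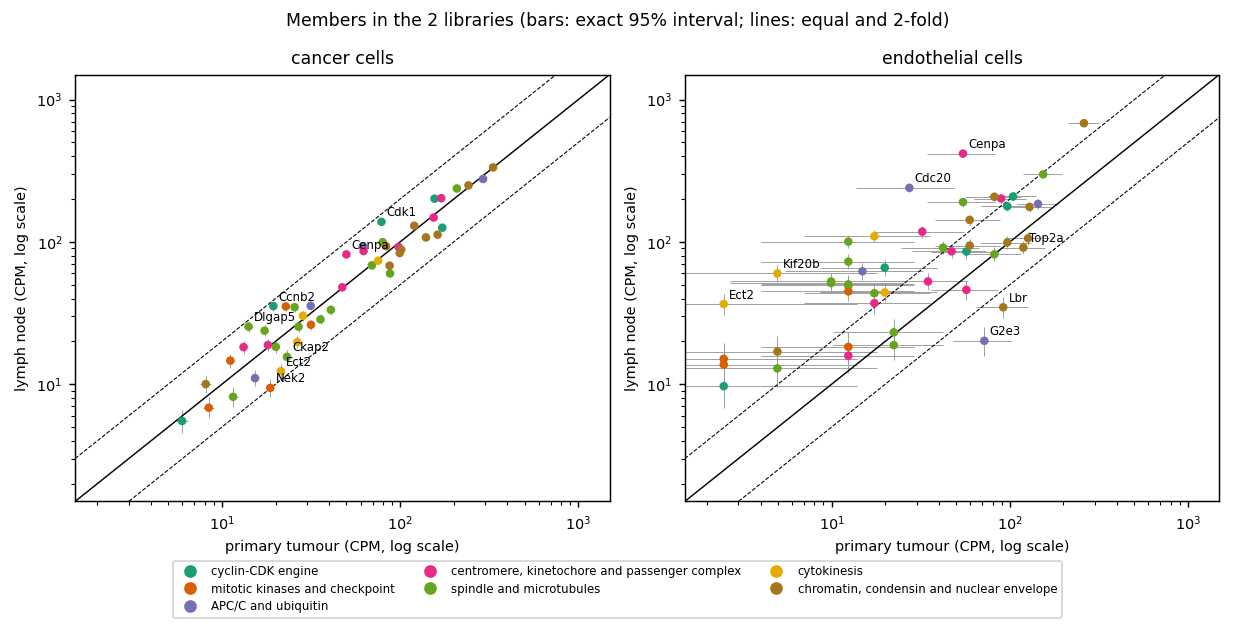
Level of each of the 49 genes in the primary tumour (x axis, CPM, log scale) and the lymph node (y axis, CPM, log scale), in cancer cells on the left and endothelial cells on the right. Points are genes coloured by role, bars are exact 95% intervals, the full line is an equal level and the dashed lines are 2-fold. All 49 genes lie between the dashed lines in cancer cells, whereas in endothelial cells many lie above them, from Cdc20 and Cenpa to Ect2 and Kif20b, and Lbr and G2e3 lie below.

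Endothelial cells differed far more between the sites. The 49 genes summed to 2457 CPM (2306 to 2614) in primary tumour endothelial cells and 5159 CPM (5086 to 5232) in those of the lymph node. Over all 49 genes the median log2 ratio, lymph node over primary tumour, was 1.16, with 41 genes higher and 8 lower. The interval left out an equal level on the higher side for 31 genes and on the lower side for 2 (Lbr and G2e3). Genes with at least 100 UMIs at either site were 39 of the 49, of which 24 were over 2-fold higher and 1 lower (23.7% and 14.7% of all 4553 such genes) and 30 and 1 had intervals on the higher and the lower side (34.5% and 25.2%), with a median of 1.23 (0.20 over all such genes). However, 38 of the 39 reached 100 UMIs only in the lymph node, whose endothelial cells held 9.22 times the UMIs, so this limit favours genes that are high there. With the limit on the mean of the sites, 23 of 41 genes were over 2-fold higher, where 16.1% of 6114 genes were, and 2 over 2-fold lower, where 29.1% were. The median was then 1.07 over the 41 genes and -0.24 over all genes, and intervals lay on the higher side for 29 genes and on the lower side for 2, against 24.1% and 37.2% of all genes. This comparison rests on 51 primary tumour endothelial cells with 403001 UMIs in all, where a gene at 0, such as each of the 3 high endothelial genes, could have been at up to 7.44 CPM (3 UMIs), and in which a median of 33.3% of a gene's UMIs came from 1 cell, against 6.12% in the lymph node. Summed endothelial markers (11 of 11 detected at both sites) were at 6241 CPM in the primary tumour and 1301 CPM in the lymph node, and summed cancer cell markers at 997.5 CPM (8 of 10 detected) and 73.5 CPM (9 of 10). The part of these marker differences in the ratios was not tested.

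Ect2, Kif20b, Cdc20, Cenpa and Hmmr had the highest endothelial ratios. Cdc20 (ENSMUSG00000006398, chr4:118432901-118437352, GRCm38) was at 27.3 CPM in primary tumour and 240 CPM in lymph node endothelial cells, a log2 ratio of 3.07 (2.29 to 4.14), with UMIs in 92 of 189 lymph node cells and 11.8% of them in 1 cell. In cancer cells it was at 31.5 CPM in the primary tumour and 35.5 CPM in the lymph node. Cenpa was at 54.6 and 417 CPM (2.90), the second highest class for it being plasmacytoid dendritic cells at 348 CPM. Hmmr was at 12.4 and 100 CPM (2.88) and Anln at 17.4 and 110 CPM (2.56). Ect2 and Kif20b, a kinesin of the cleavage furrow, had only 1 and 2 UMIs in primary tumour endothelial cells, so that their log2 ratios of 3.30 (1.38 to 9.20) and 3.28 (1.73 to 6.65) carry wide intervals. Cdc25c, the phosphatase that activates CDK1, Ttk and Nek2 had 1 UMI there and Gas2l3 and Cdca2 had 2.

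By role, the medians of the endothelial log2 ratios, over all genes of a role, were 2.92 for cytokinesis, 1.86 for the kinases, 1.23 for the spindle, 1.15 for the APC/C group, 0.98 for the cyclin-CDK engine, 0.92 for centromere genes and 0.53 for chromatin. Tacc3, which stabilises spindle fibres, was at 12.4 and 72.6 CPM (2.42), and Tpx2, the activator of Aurka on the spindle, at 54.6 and 191 CPM (1.77). Hmgb2 was at 260.5 and 683 CPM (1.38) and Birc5 at 89.3 and 202 CPM (1.16). Ube2c, at 144 and 185 CPM (0.35, -0.03 to 0.77), and Top2a, at 119 and 91.2 CPM (-0.40, -0.82 to 0.08), had intervals that held an equal level. Lbr, the lamin B receptor of the inner nuclear membrane, went the other way at 91.8 and 34.7 CPM (-1.42, -1.94 to -0.83). G2e3, with 29 and 75 UMIs, had the lowest ratio of the 49, at 72.0 and 20.2 CPM (-1.85, -2.47 to -1.16).

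HEC-like and other endothelial cells of the lymph node were each set against the same primary tumour cells. Over all 49 genes the median log2 ratio was 0.98 for HEC-like cells, with 34 genes higher than in the primary tumour and 15 lower, and 1.17 for the others, with 41 higher and 8 lower. With at least 100 UMIs at either site, the HEC-like median was 1.61 over 15 of the 49 and 0.43 over all 1784 such genes. For the other cells it was 1.215 over 36 of the 49 and 0.25 over all 3477 such genes. Cenpa was at 294 CPM in HEC-like and 467 CPM in the other cells, Cdc20 at 127 and 285 CPM, Hmmr at 98.4 and 101 CPM, and Ect2 at 49.7 and 31.3 CPM. Ube2c was at 47.8 CPM in HEC-like cells and 240 CPM in the others, and 24.5% of its UMIs in lymph node endothelial cells came from 1 cell. Hmgb2 was at 866 and 609 CPM and Mki67 at 186 and 125 CPM. With the 37 genes used mainly in mitosis, 14.3% of HEC-like cells and 27.3% of the other endothelial cells were past the limit. The other endothelial cells include the 23 cells with Glycam1 at 4042 CPM, of which 73.9% were past the limit with all 49 genes and 34.8% with the 37. They also include 41 cells with Glycam1 at 729 CPM, Chst4 at 187 CPM and Fut7 at 122.5 CPM, of which 16.7% and 10.0% were past it. These 41 cells were shallow, with a median of 1908 UMIs against 30820 in HEC-like cells, and only 30 were deep enough to be thinned. Their leading genes began with Lars2, Igkc and Lcn2. HEC-like cells set against the others therefore do not compare cells with and without high endothelial genes. Among the endothelial subclusters of the lymph node the share ran from 16.7% to 73.9%, with 54.3% in the HEC-like one.

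Within lymph node endothelial cells the genes separated the cells less sharply than in cancer cells. Set by the other 48 genes, 30 of 49 were over 2-fold higher in cells past the limit, against 1.6% of 4488 genes, with a median fold of 2.36. Nusap1 (7.08-fold, 3.61 to 17.9), Hmmr (5.34-fold, 155 against 28.7 CPM) and Ube2c (4.49-fold, 287 against 63.6 CPM) were highest, and Hjurp (1.05-fold) and Cbx5 (1.08-fold) lowest. Cells below the limit still held 2951 CPM of the 49 genes, against 1626 CPM in primary tumour cancer cells below the limit. The median log2 ratio between the sites was -0.21 within endothelial cells past the limit and 1.56 among the others, where the primary tumour had 5 cells past the limit.

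In lymphocytes the genes divided germinal centre and regulatory classes from the rest. Germinal centre B cell-like cells had the highest summed level of the classes, 8357 CPM (8116 to 8604), against 2309 CPM in the other B cells. Hmgb2 was at 2455 CPM in them and 674 CPM in the other B cells, Top2a at 456 and 38.6 CPM, Mki67 at 382.5 and 16.6 CPM, and Cenpf at 156 and 9.90 CPM. Regulatory T cell-like cells were at 5501 CPM against 2246 CPM in the other lymph node T cells, with Hmgb2 at 1778 and 534 CPM and Top2a at 246 and 38.3 CPM. Primary tumour T cells were at 5469 CPM, with Hmgb2 at 1332 CPM and Top2a at 379 CPM. The 12 genes used outside mitosis made up 74.4% of the 49 genes' UMIs in the other B cells and 73.2% in the other T cells, against 41.4% and 38.5% in cancer cells of the primary tumour and the lymph node.

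Over the broad classes, lymph node endothelial cells had the highest level of 21 of the 49 genes, primary tumour T cells of 10, and cancer cells of 5 at each site, and the interval lay apart from that of the second class for 10, 6, 2 (primary tumour) and 3 (lymph node) of them. How often genes outside the list were highest in each class was not counted, so these numbers do not set the 49 genes apart from others. Cancer cells of the primary tumour were highest with an interval apart for Cbx5 and Ube2c, and those of the lymph node for Cdk1, Cdca8 and Cdca3. For Cenpf, Hjurp and Rangap1, highest in primary tumour cancer cells, and for Aurkb and Birc5, highest in those of the lymph node, the interval overlapped that of the second class. Several genes were high in classes with few cells past the limit. Of those named next, Cks2, Gas2l3, Smc4 and Ctcf were highest in such a class, with an interval apart from the second class only for Smc4. Cenpa was highest in lymph node endothelial cells. Cks2 was at 227.5 CPM in primary tumour neutrophils, where Cdc20, Aurkb and Nek2 were at 0, which allows up to 8.03 CPM each (3 UMIs). Gas2l3, which links actin to microtubules, was at 170 CPM in lymph node monocytes (113 to 246), 121 CPM in primary tumour macrophages and 129 CPM in primary tumour monocytes, against 11.6 and 8.15 CPM in cancer cells. Smc4, a core subunit of condensin, was at 333 CPM in lymph node T cells and 99.5 CPM in primary tumour cancer cells. Ctcf was at 206 CPM in lymph node B cells and Cenpa at 254 CPM in the B cells outside the germinal centre, against 49.96 CPM in primary tumour cancer cells. Hmgb2, Cks1b, Tubb4b and Cbx5 have near-identical copies or pseudogenes elsewhere in the genome, so their counts are uncertain to that extent. No gene of the list shared same-strand exons with another counted gene, and 10 overlapped an exon on the opposite strand.

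**Figure D5:**
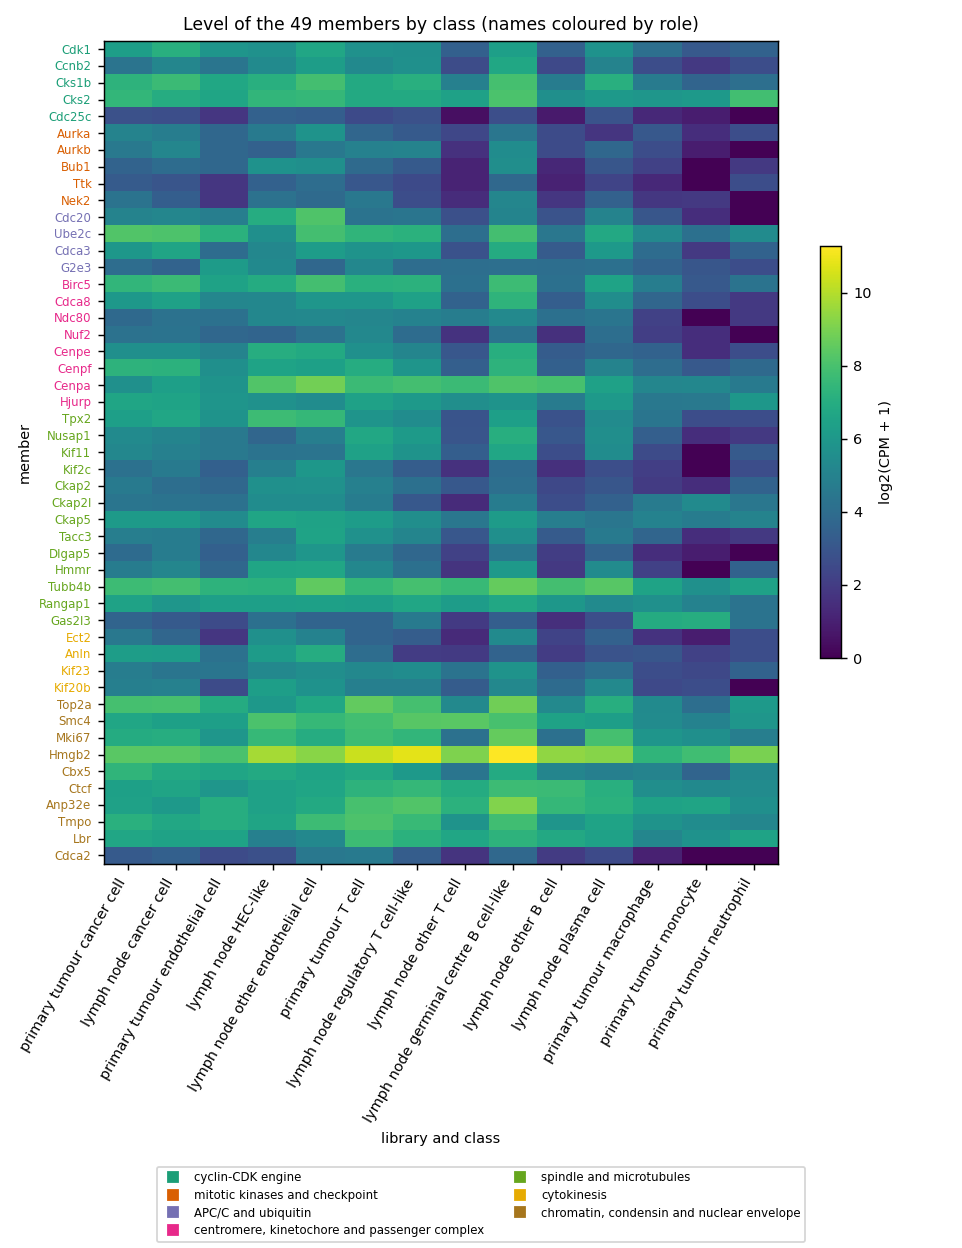
Level of the 49 genes (rows, names coloured by role) in 14 groups of cells (columns, library and class), as log2(CPM + 1). Germinal centre B cell-like cells, primary tumour T cells and lymph node endothelial cells are bright across roles, the other B and T cells are bright mainly for Hmgb2, Cenpa, Tubb4b, Ctcf and, in T cells, Smc4, and Gas2l3 is bright in macrophages and monocytes.

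Genes outside the list were read in the same cells, chosen by the 49 genes. In primary tumour cancer cells the 10 genes with the highest fold past the limit were Kif14 (18.5), Aspm (18.4), Depdc1b (16.2), Ccnb1 (14.9), Depdc1a (14.7), Prr11 (14.2), Plk1 (12.4), Bub1b (11.2), Arhgap19 (11.2) and Fam83d (11.2). Ccnb1, the main mitotic cyclin, was at 107 CPM past the limit and 7.17 CPM below it, and Plk1, a kinase of mitotic entry and exit, at 63.4 and 5.09 CPM. In the lymph node they were Fut7 (18.3), Kif18a (18.1), Glycam1 (11.8), Spc25 (11.8), Knl1 (10.1), Kifc1 (9.68), Depdc1a (9.01), Aspm (8.98), Sapcd2 (8.67) and Neil3 (8.45). Fut7 and Glycam1 are genes of high endothelial cells, and their UMIs came from 7 and 13 of the 227 cancer cells past the limit, with 39.2% and 48.4% of them in 1 cell. The summed level of the 3 high endothelial genes was 30.5 CPM past the limit and 2.30 CPM below it, and without the 3 lymph node cancer cells with at least 5 such UMIs the share past the limit was 36.96% (224 of 606).

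Of the lists of other cell cycle genes, the mitotic ones had the highest medians. Of 36 other mitotic genes, 33 of the 35 with enough UMIs were over 2-fold higher past the limit in primary tumour cancer cells (median log2 fold 3.04, all genes 0.21) and 30 of 33 in those of the lymph node (2.54, all genes 0.08). Of 46 S phase genes, which copy DNA before mitosis, 37 were over 2-fold higher in the primary tumour (median 1.53) and 28 in the lymph node (1.15), with Rrm2, a subunit of ribonucleotide reductase, at 4.91-fold and 2.89-fold. Of the transcription factors of the cycle, 6 of 15 and 4 of 13 were over 2-fold higher, among them Foxm1 (6.25-fold and 4.60-fold) and Mybl2, which encodes B-MYB (4.25-fold and 2.85-fold). Of the CDK inhibitors, 2 of 6 were over 2-fold higher at each site, Cdkn2d (3.42-fold and 4.14-fold) and Cdkn2c (3.09-fold and 2.27-fold), and Cdkn1a, the p53 target that halts the cycle, stood at 0.539-fold and 1.22-fold.

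Between the sites these lists were close to the 49 genes in cancer cells. Their median log2 ratios, lymph node over primary tumour, over all genes of a list, were 0.16 for S phase genes (32 of 46 higher), -0.08 for the other mitotic genes (15 of 36 higher), -0.16 for transcription factors and -0.15 for CDK inhibitors. Single genes went further, with Cdkn3, a phosphatase of CDKs, at 1.18, Gins2 and Prim1, replication genes, at 1.11 and 1.03, Pttg1 (securin) at 0.86, and Espl1 (separase), Cdkn1a and Foxm1 at -0.91, -0.81 and -0.73. In endothelial cells S phase genes had a median of 1.52 (43 of 46 higher in the lymph node) and the other mitotic genes 1.31 (30 of 36 higher). Within lymph node endothelial cells the S phase genes had a median log2 fold past the limit of 0.20 and the other mitotic genes of 1.03.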

How the data were processed

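Single-cell transcripts were counted in 2 libraries, primary tumours and paired lymph nodes of 6 pooled mice. The deposited values are unnormalized UMI counts, 1 per gene and barcode, which the authors made with Cell Ranger against GRCm38 (5.0.0 per the file headers, 2.1.1 per the submitters' processing notes, and another version in the reporting summary). The study methods exclude genes found in fewer than 50 cells, with a row mean under 0.01, or undetected. The deposited counts had not been cut in this way, since 8995 of their 22620 genes had UMIs in fewer than 50 barcodes of both libraries together and 4025 in none.

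Barcodes were kept with more than 200 and no more than 6000 genes detected and with mitochondrial UMIs no higher than 5%. Doublets were scored with Scrublet in scanpy 1.11.5 at an expected rate of 6%. The caller marked 391 primary tumour cells, which were removed, and 0 lymph node cells, where 616 cells with scores past the 94th percentile were taken out. Cells of both libraries were clustered together (2000 variable genes per library, 30 principal components, 15 neighbours, Leiden resolution 1.0). The 49 genes and the other lists were left out of the variable genes. An S phase score and a score made from the 49 genes themselves were regressed out, since the study had also regressed out cell cycle effects. Clusters were named from marker lists by a score set after seeing the data, which left 433 primary tumour cells (4.95%) without a name, and 63 from lymph nodes (0.65%).

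Levels are CPM of summed UMIs with exact Poisson intervals, and shares have Clopper-Pearson intervals. Log2 ratios added 0.5 count to each sum. Values over all genes used genes with at least 100 UMIs, at either site for ratios between the sites and over both groups of cells for folds past the limit, and a limit on the mean CPM of the sites was added after seeing the data. Thinning used 1 seeded draw. The thinning and the ratio with its interval were tested on simulated data. The text names, per role, up to 3 genes with the highest level in primary tumour cancer cells, the 5 highest and 5 lowest by fold past the limit and by ratio between the sites in cancer cells, and the 10 highest outside genes by fold in each library, and further genes were named after their values were seen. The 49 genes, the lists and the rules were chosen with earlier results of these data known. DoubletFinder, Harmony and inferCNV, used by the study, were not used here.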

Additional observations from a re-analysis of the deposited data

Results flagged for a closer look

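Some of the cells that had been removed also carried the 49 genes, at shares above those of neutrophils (primary tumour 3.23%, 0.393 to 11.2, lymph node 3.03%, 0.0767 to 15.8). Those with over 6000 detected genes enter comparisons above only through the values with no upper limit on detected genes. Among the 874 primary tumour cells with over 6000 detected genes, 71.85% (68.7 to 74.8) were past the limit of 4 genes at 1000 UMIs, and among the 971 such lymph node cells 72.4% were (703 of 971). Primary tumour cells with over 5% mitochondrial UMIs stood at 15.8% (300 of 1899) and those removed for their doublet score at 28.09% (109 of 388). In the lymph node the same groups stood at 20.5% (46 of 224) and at 8.62% (6.52 to 11.1, 53 of 615). The latter was below the kept cells and inside the interval of lymph node neutrophils. Of the kept cells, 20.8% of those from the primary tumour and 12.2% of those from lymph nodes were past the limit. When classes were rebuilt with no upper limit on detected genes, lymph node cancer cells went from 612 to 1355 and lymph node endothelial cells from 189 to 342. Primary tumour cancer cells went from 6123 to 6745 and primary tumour endothelial cells from 51 to 55. Lymph node T and B cells and primary tumour T cells did not rise in number. The class of each removed cell was not tested.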

How the results depend on the processing

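The share of cells past the limit was higher in the lymph node than in the primary tumour under every setting tried with the 49 genes or the 37, 1.38 to 1.88 times in cancer cells and 2.57 to 5.79 times in endothelial cells, while the shares themselves depended on the limit. In the order primary tumour cancer, lymph node cancer, lymph node endothelial, primary tumour T, lymph node T and lymph node B cells, they were 25.2, 37.3, 52.3, 22.1, 10.4 and 9.22% as reported. They were 14.95, 23.0, 24.7, 11.7, 0.957 and 0.550% with 37 genes, 33.3, 46.6, 67.8, 32.7, 26.6 and 26.7% with at least 3 genes, 15.5, 22.8, 26.4, 13.9, 1.86 and 1.01% with at least 6, and 20.3, 31.4, 40.2, 14.4, 2.30 and 1.36% with at least 3 of the 37, a setting chosen after seeing the data. With 5000 UMIs and at least 10 genes they were 33.6, 48.8, 68.6, 65.8, 18.1 and 43.1%, over the 5395, 601, 137, 38, 492 and 109 cells deep enough, and 26.7% in primary tumour endothelial cells (30 cells), so that fewer and deeper cells were counted. With no upper limit on detected genes the cancer cell shares were 30.4% and 57.1%, and with 10% mitochondrial UMIs the primary tumour share was 23.8%. At least 4 of the other mitotic genes were found in 6.54% (5.93 to 7.19) of primary tumour and 8.05% (6.01 to 10.5) of lymph node cancer cells. Endothelial cells stood at 4.17% (0.509 to 14.25) and 8.62% (4.91 to 13.8), so both pairs of intervals overlapped. With S phase genes the cancer cell shares were 17.1% (16.2 to 18.1) and 23.15% (19.9 to 26.7). The endothelial ones were 10.4% (3.47 to 22.7) and 39.7% (32.3 to 47.3), and both pairs of intervals lay apart. Keeping doublets, finer clusters or another draw moved no share beyond its interval. The cause of the other moves was not tested.

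The median log2 ratio of the 49 genes in cancer cells, -0.02 as reported, was 0.045 with 37 genes, 0.024 with 10% mitochondrial UMIs, 0.32 as a mean of single-cell CPM, 0.29 with no upper limit on detected genes and 0.012 over the 36 genes with a mean of the sites of at least 20 CPM. In endothelial cells, 1.23 over the 39 genes with at least 100 UMIs at either site, it was 1.75 with 37 genes, 1.44 with cell cycle scores not regressed out, 1.40 as a mean of single-cell CPM and 1.09 without a subcluster led by T cell markers, which was left out after seeing the data. With limits on low genes chosen after seeing the data it was 1.19 (at least 100 UMIs over both sites, 40 genes), 1.07 (a mean of the sites of at least 20 CPM, 41 genes) and 1.16 (no limit). No paired analysis was possible because each site had 1 library. Depth limits the primary tumour endothelial cells most, where 7 of the genes had 1 to 3 UMIs.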

Other observations

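In endothelial cells, other cell cycle genes differed between the sites alongside the 49. Rrm2, which supplies nucleotides for DNA synthesis, was at 12.4 CPM in the primary tumour and 182 CPM in the lymph node (log2 ratio 3.74, 2.64 to 5.50), and Foxm1 at 12.4 and 45.5 CPM (1.74). Genes that restrain the cycle went both ways. Cdkn1a was at 543 and 1361 CPM (1.32, 1.13 to 1.53), while Rb1, the retinoblastoma protein that holds back E2F factors, was at 42.2 and 11.3 CPM (-1.93, -2.74 to -0.99) and Cdkn1b at 64.5 and 64.3 CPM. Myc, a growth-promoting transcription factor, was at 47.2 and 135 CPM (1.49). Rrm2 and Foxm1 rest on 5 UMIs each in primary tumour endothelial cells.

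With 5000 UMIs per cell and a limit of 10 genes, the shares past it among lymphocytes were 73.3% of germinal centre B cell-like cells (33 of 45), 46.4% of regulatory T cell-like cells (51 of 110), 21.9% of the other B cells (14 of 64), 9.95% of the other T cells (38 of 382) and 65.8% of primary tumour T cells (25 of 38). The order was not that at 1000 UMIs, where primary tumour T cells (22.1%) stood close to regulatory T cell-like cells (23.2%) and the other B cells (8.61%) close to the other T cells (9.03%). With 5000 UMIs HEC-like cells were at 68.6% (24 of 35) and the other lymph node endothelial cells at 68.6% (70 of 102).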
